A study of Mus musculus with 12 samples.

Results

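Metabotropic glutamate receptors sense glutamate at and around the synapse, and the genes for 7 of them, Grm2, Grm3, Grm4, Grm5, Grm6, Grm7 and Grm8, were followed in the hippocampal methylation profiles of adult mice. Members were all peaks that the files assign to 1 of these genes, whatever their class, which gave 325 of 291684 peaks. Peaks that overlapped by at least 1 bp in any of 8 libraries were merged, which gave 93 of 91177 regions. MeDIP-Seq was used, which pulls down methylated fragments with an antibody to 5-methylcytosine, on hippocampus of male C57BL/6J mice at postnatal day 70. Control mice had neither treatment. Ethanol mice were exposed before birth through dams that drank a 10% ethanol solution by choice, and the methods of the study state that the bottle remained in place for a time after birth. Stress mice were taken from dam and littermates for 3 h a day between postnatal days 2 and 14. Ethanol + stress mice had both treatments. Per the methods, littermates were split between separation and no separation, and the litter of a library was not used here. Each group had 2 enriched libraries from separate mice and 1 input library from another mouse. The input served as the background for both enriched libraries of its group, so an effect of treatment and one of the input cannot be told apart. Methylation data hold no expression of marker genes, so the tissue label was not checked.

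These receptors are coupled to G proteins and tune transmission over a slower time scale than ionotropic glutamate receptors. Group I, to which Grm5 belongs, acts mainly behind the synapse through Gq and phospholipase C. Group II (Grm2 and Grm3) and group III (Grm4, Grm6, Grm7 and Grm8) act through Gi/o, lower cyclic AMP and often restrain transmitter release. In the hippocampus, Grm5 takes part in long-term depression, Grm7 sits at the active zone of the terminal, Grm3 is also found in astrocytes, and Grm6 is best known from ON bipolar cells of the retina. Methylation of cytosine before guanine (CpG) is common in gene bodies and in repeats, while promoters rich in CpG are mostly free of it.

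A peak is a call of enrichment over input and not a methylation level. Each peak has a fold enrichment, the ratio of its summit to the local background. Each also has a summit value, taken here as a pileup of tags that the peak caller rescaled and rounded. Libraries differed in yield, from 22805 peaks in Ethanol library 2 to 51747 in Stress library 2, and read totals were not used here. Regions are numbered within each gene along the chromosome, in mm10.

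The 6 stretches shown next carry the findings. The sequence of the + strand is shown around the strongest summit of each region, with every CpG in capitals. Grm2 region 2 (chr9:106650802-106651101), Grm6 region 1 (chr11:50859768-50860067) and Grm4 region 31 (chr17:27502785-27503084) lie wholly in coding sequence and hold 20, 18 and 18 CpG in 300 bases. Grm4 region 12 (chr17:27438433-27438644) is shown for the 212 intronic bases at its summit, with 4 CpG, because its fold changed most. Grm3 region 12 (chr5:10364284-10364583) and Grm8 region 4 (chr6:27125672-27125971) are strong peaks far outside their genes. Of their bases 97.7% and 100% are marked as repeat in the genome, and they hold 19 and 14 CpG. Grm2, Grm3, Grm4 and Grm8 are read from the other strand, so that their coding strand is the reverse complement.
Grm2 region 2: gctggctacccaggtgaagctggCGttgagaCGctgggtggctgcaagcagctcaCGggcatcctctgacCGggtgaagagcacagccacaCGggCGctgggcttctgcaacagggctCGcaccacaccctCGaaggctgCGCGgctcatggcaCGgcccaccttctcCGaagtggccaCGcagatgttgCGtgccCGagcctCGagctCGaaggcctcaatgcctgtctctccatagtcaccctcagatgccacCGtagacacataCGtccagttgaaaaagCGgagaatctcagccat
Grm6 region 1: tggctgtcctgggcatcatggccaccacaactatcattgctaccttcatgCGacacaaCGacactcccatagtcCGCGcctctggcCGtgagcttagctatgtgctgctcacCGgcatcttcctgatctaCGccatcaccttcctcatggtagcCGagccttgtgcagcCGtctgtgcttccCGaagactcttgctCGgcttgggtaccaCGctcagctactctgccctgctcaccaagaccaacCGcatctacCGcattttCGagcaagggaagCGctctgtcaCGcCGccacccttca
Grm4 region 31: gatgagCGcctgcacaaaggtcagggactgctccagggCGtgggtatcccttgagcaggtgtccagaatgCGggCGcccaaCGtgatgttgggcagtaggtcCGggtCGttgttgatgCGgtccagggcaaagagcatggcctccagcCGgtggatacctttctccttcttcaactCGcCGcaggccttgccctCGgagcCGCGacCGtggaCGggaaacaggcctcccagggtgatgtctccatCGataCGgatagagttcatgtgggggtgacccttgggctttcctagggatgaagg
Grm4 region 12: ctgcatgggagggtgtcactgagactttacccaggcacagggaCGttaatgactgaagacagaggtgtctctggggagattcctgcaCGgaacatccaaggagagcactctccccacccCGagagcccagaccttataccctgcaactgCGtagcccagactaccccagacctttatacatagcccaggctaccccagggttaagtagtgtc
Grm3 region 12: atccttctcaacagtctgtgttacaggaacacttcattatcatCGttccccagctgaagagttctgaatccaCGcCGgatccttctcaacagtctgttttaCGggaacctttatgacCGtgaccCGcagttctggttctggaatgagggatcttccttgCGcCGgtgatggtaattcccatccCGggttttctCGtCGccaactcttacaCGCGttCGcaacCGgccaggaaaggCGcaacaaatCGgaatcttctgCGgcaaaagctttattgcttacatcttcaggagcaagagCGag
Grm8 region 4: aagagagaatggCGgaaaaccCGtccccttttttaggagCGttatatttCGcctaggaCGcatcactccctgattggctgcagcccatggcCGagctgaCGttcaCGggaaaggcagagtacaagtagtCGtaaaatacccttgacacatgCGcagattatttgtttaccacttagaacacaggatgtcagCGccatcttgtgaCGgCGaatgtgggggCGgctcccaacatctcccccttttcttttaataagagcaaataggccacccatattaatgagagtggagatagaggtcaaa

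The receptor genes differed widely in how many peaks they carried. Grm4 had 114 peaks in 35 regions, Grm3 had 83 in 15 and Grm8 had 68 in 25. Grm7 had 40 peaks in 12 regions, Grm6 had 10 in 3, Grm2 had 9 in 2 and Grm5 had 1. Of the 325 peaks, 3 (0.923%) were classed as promoter, 153 (47.1%) as gene body and 169 (52%) as intergenic. Over all assignments of a peak to a gene these shares were 2.80%, 25.7% and 71.5%. By the GENCODE M21 annotation, 8 of the 93 regions had their strongest summit in a coding exon, 43 in an intron, 1 in a UTR and 41 outside the gene.

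**Figure D1:**
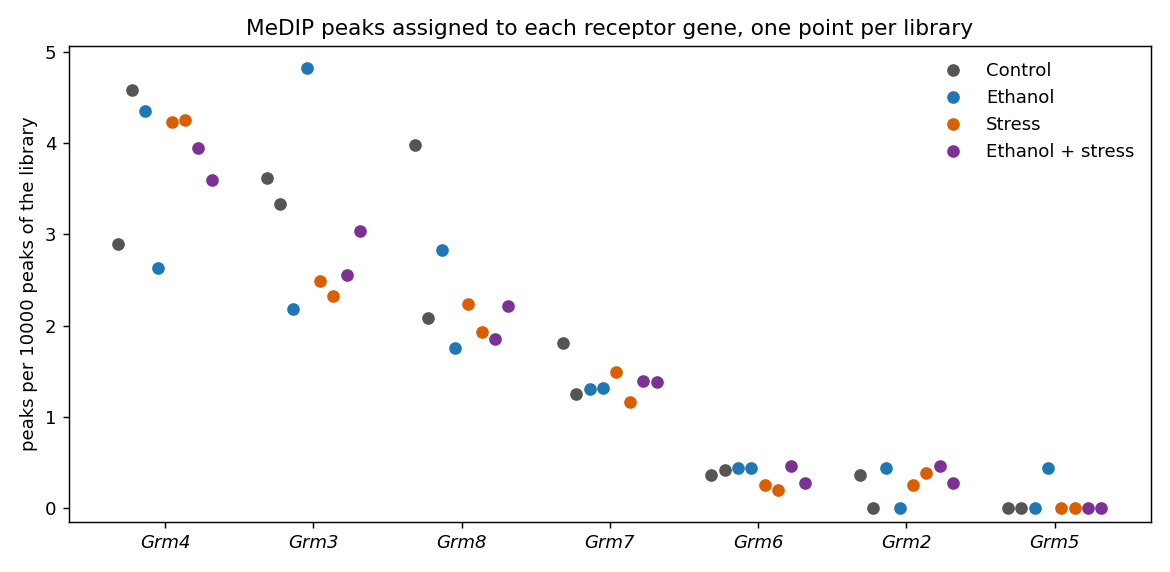
Peaks assigned to each receptor gene per 10000 peaks of the library (y axis), with 1 point for each of the 8 libraries, coloured by group. Grm4 lay between 2.63 and 4.58 in all libraries, Grm5 had a point above 0 only in Ethanol library 2 (0.439), and the libraries of separated and unseparated mice overlapped at every gene.

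Sharing between libraries was uneven. A peak in all 8 libraries was found at 18 of 93 receptor regions (19.4%), where 9.76% of all 91177 regions had one. A peak in 1 library was found at 36 receptor regions (38.7%), the same share as over all regions (38.7%). Of the 18 shared regions, 8 were assigned to Grm3, 5 to Grm4, 2 each to Grm7 and Grm8 and 1 to Grm6, while Grm2 and Grm5 had 0.

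Shared receptor regions differed by gene in CpG and repeats. In windows of 500 bp around the summit, the 18 shared regions had a median of 24.5 CpG against 12 over all 8901 shared regions of the genome. The 8 shared Grm3 regions had a median of 26 and the 2 at Grm8 of 29, whereas the 5 at Grm4 had a median of 4, although region 12 among them had 22. The 36 receptor regions with a peak in 1 library had a median of 6.5, against 6 over all such regions. More than 50% of the window was repeat at 14 of the 18 shared receptor regions (77.8%) and at 69.9% of all shared regions. Over all regions of a gene, 13 of 15 Grm3 regions, 11 of 12 Grm7 regions and 19 of 25 Grm8 regions were mostly repeat, against 9 of 35 at Grm4 and 0 of 2 at Grm2. Reads from repeats can fit several places in a genome, and how such reads were treated is not given in the sources used here.

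Grm5, the group I receptor, was nearly free of peaks. Its single peak was in Ethanol library 2, in an intron (chr7:87851984-87852463), with a fold of 6.61. The gene spans 551 kb, so its density was 0.0227 peaks per 100 kb and library. Among 4944 coding genes of at least 50 kb the median density was 0.286, and 35.8% of them had no peak at all.

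Grm2, a group II receptor of presynaptic terminals, carried its peaks in coding exons. Region 2 (chr9:106650561-106651439) had folds of 5.86 in Control library 1, 9.72 in Ethanol library 1, 12.4 and 11.8 in the Stress libraries and 15.1 and 12.6 in the Ethanol + stress libraries. Control library 2 and Ethanol library 2 had no peak there, so all 4 libraries of separated mice and 2 of 4 unseparated ones had one. Those 2 libraries without it had the fewest peaks of all (24017 and 22805). Region 1 (chr9:106647089-106648208) covers the start of the short coding transcript Grm2-202, with its summit 639 bp away. It had a peak in 3 libraries, with folds of 7.71 in Ethanol library 1, 10.3 in Stress library 2 and 11.3 in Ethanol + stress library 1. Since the files place the start of Grm2 at the longer transcript, both regions are classed there as gene body.

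Grm3, the other group II receptor, had most of its peaks in the sequence upstream of the gene. Of its 15 regions, 11 were intergenic and lay between 124542 and 909806 bp from the start of Grm3-201. Nearest-gene assignment alone ties these to Grm3. Region 12 (chr5:10364028-10364896), shown above, was the strongest, with folds of 17.35 and 18.25 in Control, 26.9 and 11.3 in Ethanol, 23.3 and 38.2 in Stress and 26.6 and 14.8 in Ethanol + stress. The highest and the lowest value came from Stress library 2 and Ethanol library 2, the libraries with the most and the fewest peaks. Region 2 (chr5:9570023-9570799) was the Grm3 peak in coding sequence. Its folds were 9.82 and 20.9 in Control, 24.4 and 12.7 in Ethanol, 16.8 and 16.4 in Stress and 20.3 and 15.3 in Ethanol + stress, and 5 of the 6 treated values lay between the Control values.

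Grm4, a group III receptor that restrains release at the terminal, had the highest density of peaks among the 7 genes. Within the gene and its promoter it had 12.7 peaks per 100 kb and library. That ranked 1 among the 4944 coding genes of at least 50 kb. The short genes Grm2 and Grm6 reached 9.72 and 7.89 on this scale, and Grm3, Grm8 and Grm7 had 0.573, 0.407 and 0.0542. Of the 35 Grm4 regions, 22 had their summit in an intron and 6 overlapped coding sequence. The 5 regions shared by all libraries lay between 35793 and 76950 bp into the gene. One of them, region 11 (chr17:27436100-27437206), had folds of 14.9 and 11.3 in Control, 18.6 and 15.5 in Ethanol, 17.4 and 20.0 in Stress and 21.2 and 14.7 in Ethanol + stress.

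**Figure D2:**
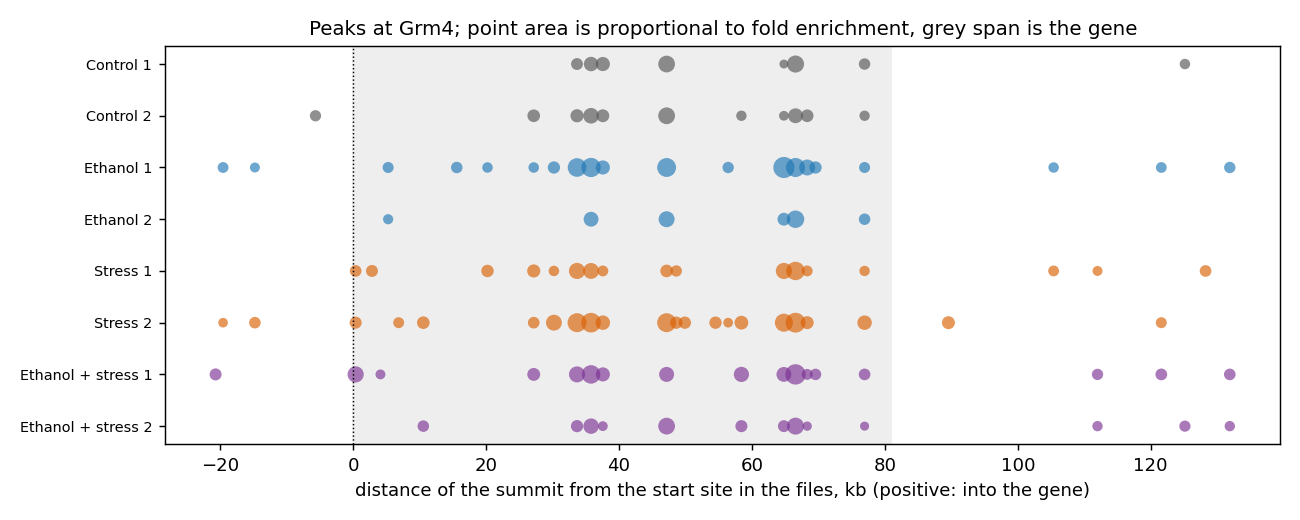
Peaks at Grm4 in each library (rows) by distance of the summit from the start site given in the files (x axis, kb), with point area proportional to fold enrichment and the gene in grey. The 5 regions with a peak in all 8 libraries all lie in the part of the gene away from the start.

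Near the start of Grm4 peaks were few. Region 31 (chr17:27502642-27503893) spans the start of Grm4-202 and its first coding exon, with a summit 369 bp into the gene. Its folds were 7.01 and 7.45 in the Stress libraries and 13.4 in Ethanol + stress library 1, and the other 5 libraries had no peak. Its stretch above has 18 CpG in 300 bases. These 3 peaks were the only promoter peaks of the 7 genes. GENCODE lists further Grm4 coding starts upstream, and 2 regions that the files class as intergenic (32 and 33) lie in introns of the longer transcripts. Region 34 lay 1481 bp from the farthest start, that of Grm4-206, with peaks in Ethanol library 1 (fold 6.04) and Stress library 2 (fold 4.74).

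Grm6 carried 1 strong peak in coding sequence. At region 1 (chr11:50859415-50860388) folds were 18.1 and 17.8 in Control, 34.1 and 14.5 in Ethanol, 26.0 and 28.5 in Stress and 22.1 and 13.4 in Ethanol + stress. Both Stress libraries were above both Control and both Ethanol + stress libraries, while the 2 Ethanol libraries enclosed the Control and the Stress values. The share of all regions with such an order was not counted. In the limma fit described below, the log2 change in Stress did not pass at region 1 (0.25 ± 0.30 SE, adjusted p = 0.725). The other 2 Grm6 regions had a peak in 1 library each, with folds of 5.58 and 7.29.

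Grm7 was almost empty within the gene, although it spans 922 kb. Of its 12 regions 10 were intergenic upstream, and the 2 in introns had peaks in 1 and 3 libraries. Region 8 (chr6:110570919-110571642), 74365 bp from the nearest start, had folds of 9.40 and 10.5 in Control, 16.5 in Ethanol library 1, 17.4 and 15.8 in Stress and 15.5 and 13.0 in Ethanol + stress, with no peak in Ethanol library 2. The 5 treated libraries with a peak were above both Control libraries there. How many of all regions show that order was not counted. In the limma fit of regions in at least 6 libraries, described below, this region did not pass in Stress or in Ethanol + stress.

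Grm8, a further group III receptor, had 14 regions spread over the introns of a gene of 860 kb and 10 regions downstream of it. The 2 strongest lay 1009 and 1005 kb from the start given in the files, at chr6:27125384-27126173 (region 4) and chr6:27129080-27130126 (region 5). Intronic peaks recurred little: 10 of 14 intronic regions had a peak in 1 library or 2. An exception was region 24 (chr6:28128963-28129704), 3116 bp from the start of Grm8-201, with peaks in 6 libraries and folds from 6.58 to 12.3.

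**Figure D3:**
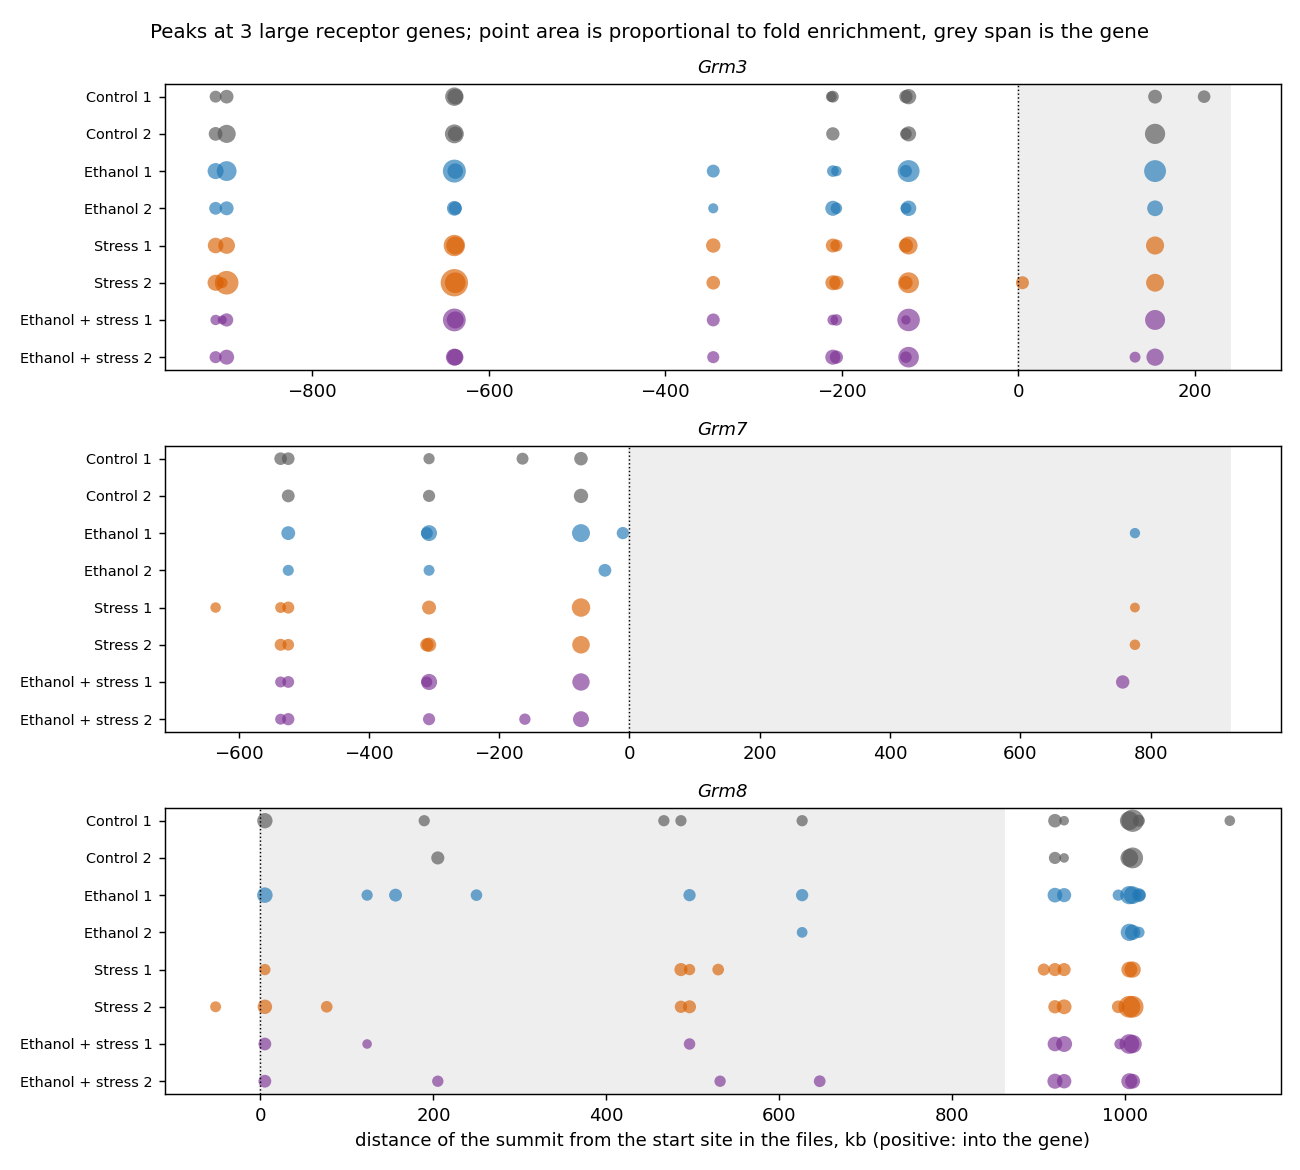
Peaks at Grm3, Grm7 and Grm8 in each library (rows) by distance of the summit from the start site in the files (x axis, kb), with point area proportional to fold enrichment and the gene in grey. Most recurrent peaks lie outside the genes, upstream of Grm3 and Grm7 and downstream of Grm8.

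Treatments were then compared with Control by the presence of peaks. A gained region had a peak in the pair of treated libraries but in no Control library, and a lost region the reverse. In Ethanol 3 of 67 receptor regions were gained, where 4.31% of all regions were gained, and 0 lost (1.42% of all regions). Stress gave 7 gained of 72, where 11.8% of all were gained, and 0 lost (1.12%). Ethanol + stress gave 4 gained of 63, where 8.25% of all were gained, and 0 lost (0.976%). The shares at the receptor genes (4.48%, 9.72% and 6.35%) were thus near those of the genome. With 2 against 2 libraries a two-sided exact permutation test cannot go below p = 0.333, so no test was made. The 3 comparisons share the Control libraries, which had 27655 and 24017 peaks. Every treated library except Ethanol library 2 (22805) had more. Over all regions, too, more were gained than lost in each treatment.

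Both regions gained in all 3 treatments lay upstream of Grm3. Region 7 (chr5:9931153-9931748) had folds of 5.54 and 6.80 in Ethanol, 7.44 and 10.3 in Stress and 6.77 and 8.89 in Ethanol + stress. Region 10 (chr5:10070466-10071316) had folds of 8.54 and 5.25, 10.6 and 9.49, and 8.57 and 7.51 in the same order, and it overlaps the pseudogene Gm6586. All 6 treated libraries had a peak at both, and the Control libraries had none. That pattern was met by 2 of 93 receptor regions and by 0.565% of all 91177 regions. The remaining gained regions were Grm4 region 28 in Ethanol (folds 6.24 and 5.28), 5 regions in Stress and Grm4 regions 1 and 5 in Ethanol + stress. Those in Stress were Grm4 regions 17, 22 and 31, Grm7 region 12 and Grm8 region 15, with folds between 4.94 and 12.9.

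Most of these calls ended when libraries were given equal numbers of peaks. When each library was cut to its 22805 strongest peaks, gained regions numbered 0 in Ethanol, 1 in Stress and 1 in Ethanol + stress, the latter 2 calls both at Grm3 region 10. In that setting Grm7 region 3 was lost in Stress and Grm3 region 6 in Ethanol + stress, although both had a peak in all 8 libraries at full number. The shares of all regions and promoters gained or lost with equal numbers of peaks were not computed. By the promoter rule, no receptor promoter could be lost, since none had a peak in Control (1.78%, 1.4% and 0.967% of all promoters were lost in Ethanol, Stress and Ethanol + stress). Grm4 was the 1 receptor promoter with a peak in Stress and was gained there, where 11.9% of 1783 promoters with a peak were gained. It was also the 1 with a peak in Ethanol + stress and was not gained (8.16% of promoters were). In Ethanol 0 receptor promoters had a peak, so the rule had none to call (3.88% of promoters were gained). The Grm4 promoter call also ended with equal numbers of peaks. Without Ethanol + stress library 2 the Grm4 promoter was gained in Ethanol + stress too.

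Pooling the groups left no receptor gene apart. The 4 libraries of separated mice (Stress and Ethanol + stress) were set against the 4 of unseparated mice, and the 4 with ethanol against the 4 without. At 0 of 7 receptor genes did the peaks per 10000 of one side lie wholly above or below the other. Over all 14146 genes, 1.87% were wholly higher and 1.34% wholly lower in separated mice, and 0.99% and 0.629% with ethanol. The two-sided exact permutation p for separation was 0.143 at Grm6 and 0.2 at Grm3, and 0.314 or above at the other 5 genes. The smallest value that 4 against 4 libraries allow is 0.0286. After adjustment over all genes the lowest p was 0.837 (exact permutation test with Benjamini-Hochberg adjustment), and 0 of 14146 genes passed in either comparison (454 for separation and 229 for ethanol had an unadjusted exact permutation p under 0.05).

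Grm3 and Grm6 each turned on 1 library. At Grm3, peaks per 10000 were 3.62 and 3.33 in Control, 2.18 and 4.82 in Ethanol, 2.49 and 2.32 in Stress and 2.55 and 3.04 in Ethanol + stress. Without Ethanol library 1 the separated libraries were all lower (difference of -1.32, exact permutation p = 0.0286, adjusted p = 0.325). At Grm6 they were all lower without Ethanol + stress library 1 (exact permutation p = 0.0286, adjusted p = 0.82). At Grm6 the ethanol libraries were all higher without Ethanol + stress library 2 (exact permutation p = 0.0571, adjusted p = 1). Grm6 had 1 or 2 peaks in every library. Before scaling, Grm3 had 10 and 8 peaks in Control and 10 and 11 in Ethanol. It had 10 and 12 in Stress and 11 and 11 in Ethanol + stress. These counts were divided by library totals between 22805 and 51747. Unscaled, the mean at Grm3 over all 8 libraries was higher in the separated ones, the opposite direction.

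Of the 93 regions, 0 had a peak in all 4 separated and in 0 unseparated libraries (0.406% of all regions), and 0 did so for ethanol (0.0834%). The reverse patterns also had 0 receptor regions (0.00877% and 0.0417% of all).

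Fold enrichment was compared at the 8901 regions with a peak in all 8 libraries, among them the 18 receptor regions. Log2 folds were centred on the median of each library and tested with limma, with p-values adjusted over all regions. In Ethanol 1 of 18 receptor regions passed, where 1.17% of all regions did. In Stress 1 of 18 passed (3.58% of all), and in Ethanol + stress 0 of 18 passed (2.29% of all). An unadjusted limma p under 0.05 in Ethanol + stress was found at 4 of 18 receptor regions and at 15.4% of all regions. The region that passed was the same in Ethanol and in Stress, Grm4 region 12 (chr17:27438076-27439242). It overlaps coding exons and has its strongest summit in the intron shown above.

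Its folds were 4.10 and 4.86 in Control, 22.8 and 8.40 in Ethanol, 13.3 and 16.7 in Stress and 11.3 and 7.27 in Ethanol + stress. Every treated library was above both Control libraries. The log2 change was 1.55 ± 0.31 (SE) in Ethanol (limma, adjusted p = 0.00612), 1.38 ± 0.31 in Stress (adjusted p = 0.00801) and 0.86 ± 0.31 in Ethanol + stress (adjusted p = 0.132). The change with both treatments was smaller than the sum of the single ones by 2.08 ± 0.43 on the log2 scale (limma interaction of -2.08, adjusted p = 0.0071, where 1.94% of all regions passed). Without Control library 1 the adjusted p was 0.128 in Ethanol and 0.1 in Stress. Without Ethanol library 1 it was 0.136 in Ethanol, and without Stress library 1 or 2 it was 0.0548 or 0.0765 in Stress. The interaction had an adjusted p of 0.0607 without Ethanol library 1 and 0.0542 without Ethanol + stress library 2.

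The denominator of this fold differed between groups. If fold is taken as the summit value plus 1 over the background plus 1, the background can be derived. It came out alike in both libraries of a group, within 1.25-fold at 93.2% of 35604 pairs over the shared regions. At Grm4 region 12 it was 9.0 and 8.87 in Control, 4.53 and 4.48 in Ethanol, 3.95 and 3.98 in Stress and 7.61 and 7.12 in Ethanol + stress. In Ethanol and Stress this was between 0.995 and 0.999 times the median background of the library, whereas in Control it was 2.25 and 2.21 times that median and in Ethanol + stress 1.59 and 1.49 times. The summit values were 40 and 47 in Control, 125 and 45 in Ethanol, 65 and 82 in Stress and 96 and 58 in Ethanol + stress. Here Ethanol library 2 lay between the Control libraries, so the Ethanol and Control values overlapped, whereas the Stress and Ethanol + stress values were above both Control values.

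With log2 summit values in place of folds, the changes at Grm4 region 12 were 0.59 ± 0.30 (SE) in Ethanol (limma, adjusted p = 0.999), 0.41 ± 0.30 in Stress (adjusted p = 0.708) and 0.39 ± 0.30 in Ethanol + stress (adjusted p = 0.99). Then 0 of 18 receptor regions passed in any comparison (0 also with an unadjusted limma p under 0.05). Over all 8901 regions 1 passed in Ethanol (0.0112%), 2 in Stress (0.0225%) and 0 in Ethanol + stress (434 with an unadjusted p under 0.05 in the last). Both libraries of a group share 1 background, so the spread between their folds leaves out the error of the input. This comparison was chosen after the data were examined.

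**Figure D4:**
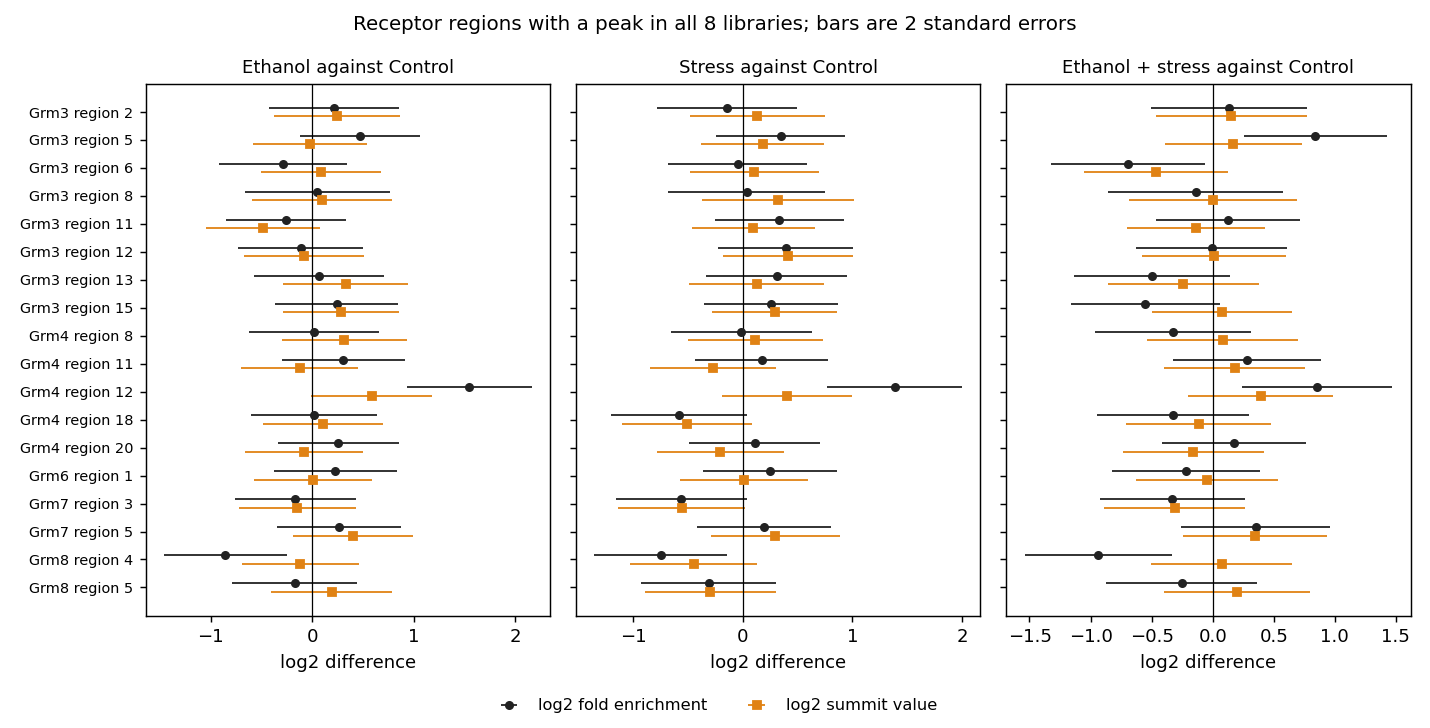
Log2 difference from Control (x axis) at the 18 receptor regions with a peak in all 8 libraries, for fold enrichment (black circles) and for the summit value (orange squares), with bars of 2 standard errors from limma. Grm4 region 12 stands apart for fold (1.55 in Ethanol and 1.38 in Stress), and its values are 0.59 and 0.41 for the summit value.

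The next region by fold moved the other way. At Grm8 region 4, downstream of the gene, folds were 25.5 and 22.2 in Control, 16.2 and 12.02 in Ethanol, 13.5 and 24.2 in Stress and 17.2 and 11.3 in Ethanol + stress. The log2 change was -0.85 ± 0.30 (SE) in Ethanol, -0.75 ± 0.30 in Stress and -0.94 ± 0.30 in Ethanol + stress, and none of the 3 passed (limma, adjusted p = 0.161, 0.16 and 0.086). The derived background was 4.29 and 4.80 in Control, 8.97 and 8.98 in Ethanol, 5.72 and 5.74 in Stress and 10.996 and 12.9 in Ethanol + stress. Summit values were 134 and 128 in Control, 160 and 119 in Ethanol, 90 and 162 in Stress and 205 and 157 in Ethanol + stress. The Ethanol and the Stress values enclosed those of Control, and both Ethanol + stress values were above Control. For the summit value, centred on the median of each library, the log2 change was -0.12 ± 0.29 (SE) in Ethanol, -0.45 ± 0.29 in Stress and 0.07 ± 0.29 in Ethanol + stress (limma, adjusted p = 0.999, 0.666 and 0.992).

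**Figure D5:**
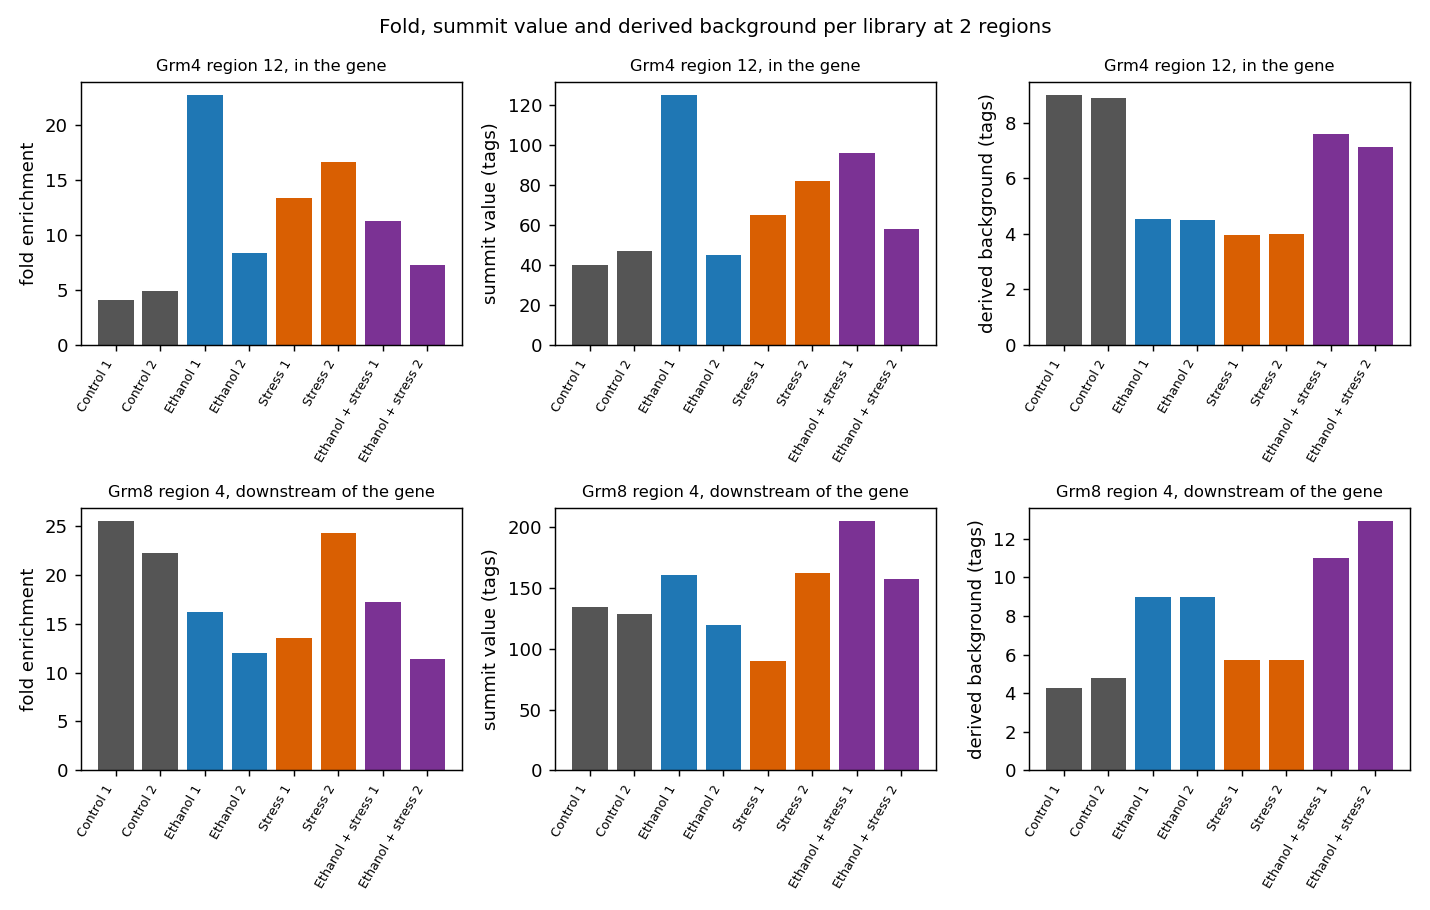
Fold enrichment, summit value and derived background (y axes, the last 2 in tags) in each library at Grm4 region 12 (upper row) and Grm8 region 4 (lower row), with bars coloured by group. Control has the highest derived background at the Grm4 region (9.0 and 8.87) and the lowest at the Grm8 region (4.29 and 4.80).

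At the other 16 shared regions the adjusted p by fold was 0.116 or above in every comparison (limma). The smallest was at Grm3 region 5 in Ethanol + stress, with a log2 change of 0.84 ± 0.29 (SE). At Grm6 region 1, the coding peak shown above, the changes were 0.23 ± 0.30 in Ethanol, 0.25 ± 0.30 in Stress and -0.22 ± 0.30 in Ethanol + stress. For Ethanol the interval of 2 SE at this region ran from -0.38 to 0.84, so differences within that range were compatible with the values. Over the 18 regions the median change was 0.06 in Ethanol, 0.14 in Stress and -0.18 in Ethanol + stress, beside -0.01, 0.003 and -0.02 over all regions tested.

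Signalling partners of the receptors were looked at through their promoters, in 4 lists with 51 genes in all. Of 19 genes of group I signalling and scaffolding, 4 had a promoter peak in any library. One was Homer2, a scaffold that binds group I receptors, with peaks in 6 libraries, and another was Plcb4, a phospholipase C, with peaks in 7. Of 18 genes of Gi/o signalling, 2 had one, and Grip1, a scaffold of glutamate receptors, had a peak in all 8 libraries with folds from 11.1 to 16.9. Of 6 partners of group III receptors, 3 had one. Trpm1, the channel that Grm6 controls in retinal bipolar cells, had peaks in 7 libraries. Of 8 glutamate transporters, 3 had one. Of the 51 genes 12 thus had a promoter peak in any library, and 4 of them had one in Control. In Stress 1 of 7 list promoters with a peak in Stress or Control was gained (11.9% of all such promoters), that of Lrit3, a synaptic protein of retinal bipolar cells, with folds of 7.89 and 7.80. In Ethanol 1 of 8 was gained (3.88% of all such), that of the transporter Slc1a7, with folds of 8.996 and 5.85. In Ethanol + stress 0 of 8 were gained (8.16% of all such). Of the 4 promoters with a Control peak 0 were lost in any treatment (1.78%, 1.4% and 0.967% of all promoters with a peak in the libraries compared, in Ethanol, Stress and Ethanol + stress).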

How the data were processed

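Hippocampal DNA was profiled by MeDIP-Seq in 8 enriched and 4 input libraries. Submitters' processing notes name HISAT2 2.1.0 and mm10. The authors ran MACS on every enriched library with the input of that group as background and named the nearest RefSeq gene, per the study's methods. The MACS release is not certain, since the deposited columns differ from those of the version stated. Values deposited by the authors are fold enrichment, a ratio to the local background, a q-value as −log10, starting near 5, and a summit tag value, a rescaled and rounded score. The files give no read totals, so depth is unknown and no counting interval is given. A low peak number in a treated library limits what can be called gained. In a Control library it limits what can be called lost and leaves more regions open to a gained call. The authors' tests of differential methylation on reads were not repeated.

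Peaks sharing 1 bp were merged. Promoter peaks had summits within 2000 bp of the start in the files. Peaks per 10000 were compared by two-sided exact permutation tests over all genes, and log2 folds by limma 3.58.1 in R 4.3.3 (4 groups in 1 fit, no replicate block), both with Benjamini-Hochberg adjustment and a threshold of 0.05. Both scripts were tested on simulated data. Replicates were separate mice. Sequence came from the GRCm38.p6 assembly (mm10), gene features from GENCODE M21, and repeats are the soft-masked bases. Density used RefSeq coding genes of at least 50 kb. Python 3.11.15 with pandas 2.3.3 was used.

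All 7 genes were named. From the partner lists, genes with a gained or lost promoter were named, up to 4 per treatment and direction, and Homer2, Plcb4, Grip1 and Trpm1 were added after their values were seen. The members and lists were chosen with earlier results of these data known. Alternatives were equal numbers of peaks (22805 per library), −log10 q of at least 10, summits within 250 bp, promoter windows of 1000 and 5000 bp, unscaled counts, no centring, regions in at least 6 libraries, a replicate block, leaving out each library and, chosen after seeing the data, summit values in place of folds.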

Additional observations from a re-analysis of the deposited data

Results flagged for a closer look

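In 5 of 26 sets of 4 libraries, 1 library lay apart from the other 3 in peaks per 10000 at a receptor gene, by Dixon's 95% limit. That limit is meant for continuous values in separate sets. These were small counts scaled to library totals, and the sets shared libraries, so the number of flags cannot be set against a chance rate. Ethanol library 2 had 0.439 at Grm5 where the other unseparated libraries had 0, and it likewise stood apart from the other ethanol-exposed libraries at 0.439 against 0, since it held the single Grm5 peak. Ethanol + stress library 2 had 0.276 at Grm6 against 0.435 to 0.464 in the other ethanol-exposed libraries. It had 1 Grm6 peak, as did Ethanol library 2, so these 2 differed only in the library total. Control library 1 had 1.81 at Grm7 against 1.249 to 1.32 in the other unseparated libraries. Control library 1 also had 3.98 at Grm8 against 1.93 to 2.24 in the other unexposed libraries.

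At Grm4 region 12 the effect of separation on fold differed with and without ethanol, by an interaction of -2.08 ± 0.43 (SE) on the log2 scale (limma, adjusted p = 0.0071). The derived background of the inputs moved with it, and for the summit value the interaction was -0.60 ± 0.42 (limma, adjusted p = 0.87). Their part in the result was not tested further.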

How the results depend on the processing

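With equal numbers of peaks, gained regions numbered 0 in Ethanol, 1 in Stress and 1 in Ethanol + stress, lost regions 1 in Stress and 1 in Ethanol + stress, regions in all libraries 11 and gained promoters in Stress 0. A −log10 q of at least 10, summits within 250 bp and other promoter windows left these counts within 1.5 times. Leaving out 1 library of a group leaves the rule resting on the other. Gained regions then ran from 3 to 24 in Ethanol, 7 to 23 in Stress and 4 to 17 in Ethanol + stress, and lost regions from 0 to 9 in each. The shares of all regions and promoters gained, lost or shared were not computed under these alternatives. The highest gained counts came without Ethanol library 2 (24), Stress library 1 (23; 15 without library 2) and Ethanol + stress library 2 (17; 9 without library 1), and without Ethanol library 1 the count was 5. Without Control library 1, gained regions numbered 5, 11 and 7 and lost regions 3, 2 and 1 in Ethanol, Stress and Ethanol + stress, without Control library 2 lost regions numbered 9 in each, and without Ethanol library 1 lost regions numbered 5 in Ethanol. Regions in all remaining libraries ran from 18 to 23, gained promoters in Ethanol + stress from 0 to 1, receptor genes with separate libraries from 0 to 1 in both pooled comparisons, and receptor regions with a changed fold from 0 to 1 in Ethanol and Stress.

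Without centring, the median of all regions moved by 0.36 (log2) in Stress, and 0 receptor regions passed in Ethanol (0.0786% of all regions). At Grm4 region 12 the uncentred change in Ethanol was 1.63 (limma, adjusted p = 0.168) and the interaction -2.35 (adjusted p = 0.0708). For the summit value 0 passed in Ethanol and 0 in Stress. The change at Grm8 region 4 in Ethanol + stress became 0.073 for the summit value. With regions in at least 6 libraries, 1 of 26 receptor regions passed in Ethanol + stress, where 0.861% of all regions did. It was Grm8 region 8 (1.247 ± 0.30 SE, limma, adjusted p = 0.0344). Folds there were 4.73 and 4.71 in Control and 13.0 and 10.7 in Ethanol + stress. The derived background was 8.93 and 8.97 against 4.76 and 4.78. Ethanol library 2 had no peak there and was left out of that value. Leaving out 1 library, changes at Grm4 region 12 ran from 1.19 to 1.91 in Ethanol and 1.26 to 1.51 in Stress.

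Small differences in peaks per gene changed sign in some settings, all with adjusted p of 0.986 or above (exact permutation test). Unscaled, the separated libraries had 1.25, 1.5 and 0.5 more peaks at Grm3, Grm7 and Grm8. With equal numbers of peaks, the ethanol libraries differed by -0.44 at Grm3 and 0.11 at Grm7. Without 1 library, the separation difference at Grm7 ran from -0.12 to 0.066 and the ethanol difference from -0.039 to 0.143 at Grm2, -0.35 to 0.53 at Grm3, -0.17 to 0.048 at Grm7 and -0.62 to 0.078 at Grm8.

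The methods name no pairing of same-numbered libraries, and their deviations correlated between -0.10 and 0.14. With 2 libraries per group this cannot show whether libraries shared a litter. With the replicate number as a block, 1 receptor region passed in Ethanol, 1 in Stress and 0 in Ethanol + stress, as without it, and calls over all regions numbered 86, 268 and 174. Read depth is unknown and limits every absent peak.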

Other observations

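Genes whose peak numbers followed those of Grm4 most closely were ranked by Pearson's r of peaks per 10000 over the 8 libraries, among 2036 genes with a mean of at least 5 peaks. They were Sult1c1 (r = 0.960), Hhip (0.944), Dhx35 (0.919), Fam178b (0.918) and Lpin1 (0.898), as a description with no test. All values share the scaling to the library total. Peaks at Sult1c1, a sulfotransferase, numbered 2 and 4 in Control, 8 and 2 in Ethanol, 6 and 8 in Stress and 6 and 4 in Ethanol + stress. Lpin1, a phosphatidate phosphatase, had 4 and 5, 9 and 3, 8 and 12, and 9 and 7 in the same order.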
